A study of Mus musculus with 9 samples.

Results

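The genes described are 48 genes of the cell cycle and of DNA replication, taken from the deposited count table by their gene symbols and found there in full, 48 of 45361 genes listed. They fall into 23 genes of the G1/S transition and of replication and 25 genes of G2 and mitosis. They were selected by symbol, with earlier results of these data known, and all 48 genes passed the filter on low counts that left 12580 genes to be tested. The RNA came from CH12F3, a mouse B-lymphoma line that switches immunoglobulin class in culture, and the labels leave unsaid whether the cells were a single clone. Every library carried the same Ligase4 knockout, the loss of a DNA ligase of end joining, and the same stimulation for 24 h by anti-CD40 together with IL-4 and TGF-β. The groups were cells given tazemetostat, an inhibitor of the histone methyltransferase EZH2, cells given valemetostat, an inhibitor of EZH1 and EZH2, and cells given the solvent DMSO, with 3 libraries each. The labels give no doses.

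Passage through the cell cycle is driven by cyclin-dependent kinases and by waves of transcription. E2F factors switch on the genes that license replication origins, make deoxynucleotides and copy DNA, while a later program that includes FOXM1 raises the cyclins, kinases and spindle proteins used in mitosis. Activated B cells divide fast, and class switching takes place in cycling cells.

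The libraries held 34080504 to 46675110 counts. Levels are given as CPM, which is a count corrected for library size with TMM factors. TPM, which is also corrected for transcript length, is used to compare genes with each other and is given per group there. The deposited log2(TPM + 1) values also serve in an alternative test with limma, and TPM with the counts gives an implied transcript length. The 7 B cell markers were all present, with summed levels of 2975 to 2992 CPM in the tazemetostat libraries and 3052 to 3214 CPM in the valemetostat libraries, against 2493 to 2783 CPM in the DMSO libraries (Cd79a, Cd79b, Ms4a1, Pax5, Cd22, Ighm and Ebf1). The 6 T cell markers summed to between 1.79 and 2.91 CPM and the 6 myeloid markers to between 27.5 and 33.7 CPM in any library, but single myeloid markers differed in opposite directions. Lyz2 lay at 0.568 to 1.77 CPM in the inhibitor libraries, against 0 to 0.0422 CPM in the DMSO libraries, and Adgre1 at 6.61 to 9.04 CPM, against 2.64 to 3.02 CPM in the DMSO libraries. Csf1r lay at 18.8 to 23.1 CPM in the inhibitor libraries, against 27.1 to 30.0 CPM in the DMSO libraries. The 6 erythroid and stromal markers summed to between 5.71 and 8.24 CPM in the inhibitor libraries and to between 3.67 and 4.18 CPM in the DMSO libraries. S100a8, Hbb-bs and Col1a2 had 0 counts in every library, and the part of these differences in the results below was not tested. Lig4 averaged -0.038 log2 CPM over all 9 libraries, and since no library lacked the knockout, this level does not check it.

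About as many of the 48 genes changed under one inhibitor as under the other, by small amounts and in both directions. With tazemetostat 9 genes rose and 15 fell relative to DMSO, so 24 of 48 were called by edgeR's quasi-likelihood test at a Benjamini-Hochberg adjusted p under 0.05 over all genes. Among all 12580 genes tested, 38.1% were called in that comparison, 19.9% higher and 18.2% lower. With valemetostat 10 genes rose and 15 fell, so 25 of 48, or 52.1%, were called, beside 39.2% of all genes tested, 20.5% higher and 18.7% lower. "Rose" and "fell" are used only of genes called at that threshold, by this test unless another test or scaling is named. Groups that do not overlap are described for single genes below. How often this occurs among all genes tested was not counted. None of the 48 reached a 2-fold change, which 6.41% of all genes tested did under tazemetostat and 6.45% under valemetostat. Both comparisons use the same 3 DMSO libraries, so their values are given side by side and are not independent. The labels do not say that replicates were separate cultures, so a p-value here reflects library-to-library spread, part or all of which may be technical. In bulk RNA, fewer cells in a phase of the cycle and less RNA per cell cannot be told apart.

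**Figure D1:**
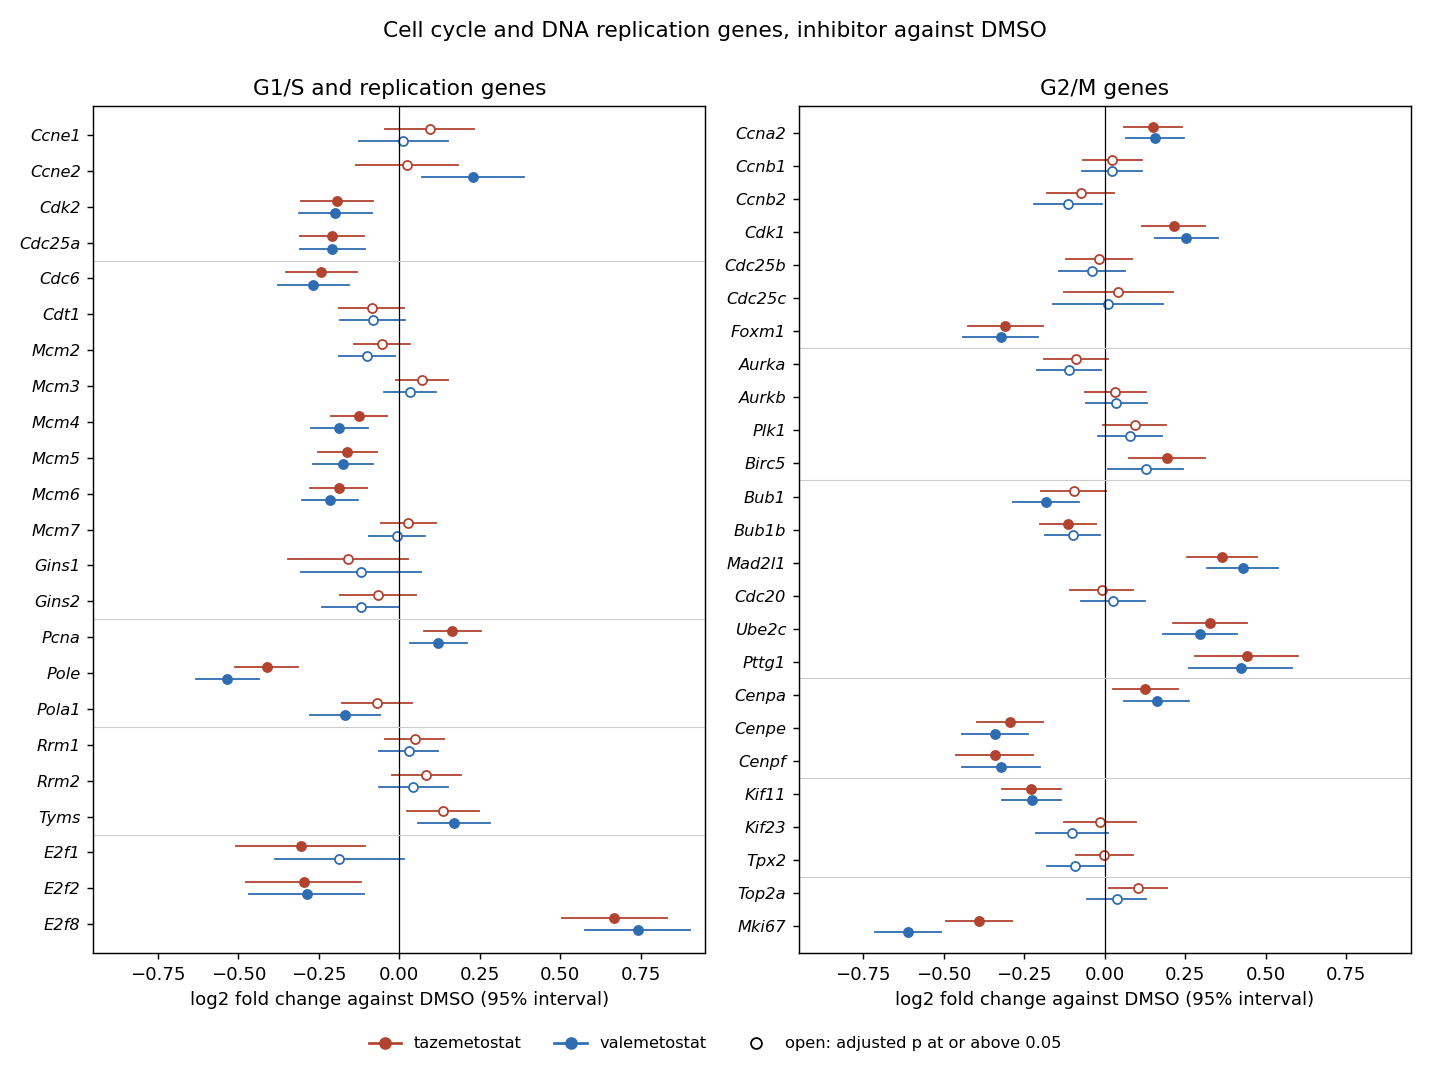
Log2 fold change (x axis) of each of the 48 genes against DMSO, for tazemetostat (red) and valemetostat (blue), with 95% intervals; filled points have an adjusted p under 0.05, open points do not, and grey lines separate the roles. E2f8 stands farthest to the right at 0.67 and 0.74, and Mki67 and Pole farthest to the left, at -0.39 and -0.61 for Mki67 and -0.41 and -0.53 for Pole.

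The 23 G1/S and replication genes leaned downwards and the 25 G2/M genes split evenly. This even split did not extend to 52 further genes of mitosis, given below, which were more often called lower than higher. Of the 23 G1/S and replication genes, 2 rose (8.7%) and 9 fell (39.1%) under tazemetostat, and 4 rose (17.4%) and 9 fell (39.1%) under valemetostat. Among all genes tested 19.9% were called higher and 18.2% lower under tazemetostat, and 20.5% and 18.7% under valemetostat. The median log2 fold change of the 23 genes was -0.069 under tazemetostat and -0.12 under valemetostat. Of the 25 G2/M genes, 7 rose (28.0%) and 6 fell (24.0%) under tazemetostat, and 6 rose (24.0%) and 6 fell (24.0%) under valemetostat, with medians of -0.0015 and 0.011. The median over all genes tested was 0.00079 under tazemetostat and 0.0073 under valemetostat. With library totals in place of TMM scaling the G2/M genes under valemetostat divided into 6 that rose and 10 that fell. In that fit 39.4% of all genes tested were called, 2413 higher and 2549 lower. The deposited log2(TPM + 1) values, tested with limma, gave 3 G2/M genes that rose and 8 that fell under tazemetostat. Under valemetostat they gave 4 that rose and 10 that fell, beside 24.6% and 25.9% of all genes tested that were called. All genes leaned downwards on that scale, with 1177 called higher and 1923 lower under tazemetostat and 1182 and 2070 under valemetostat. Their median log2 fold changes there were -0.068 and -0.067. The difference between the classes was not tested, since genes of a class share libraries and regulation and are not replicates.

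Per library, the mean deviation of the 23 G1/S and replication genes from their means over all 9 libraries was -0.047, -0.0048 and 0.0057 log2 CPM with tazemetostat and -0.029, -0.011 and -0.033 log2 CPM with valemetostat, against 0.035, 0.043 and 0.040 log2 CPM with DMSO. All 6 inhibitor libraries thus lay below all 3 DMSO libraries for this class, by a few hundredths of a log2 unit. The same mean over the 25 G2/M genes was 0.0027, 0.023 and 0.0052 log2 CPM with tazemetostat and 0.0041, -0.019 and -0.030 log2 CPM with valemetostat, against -0.030, 0.015 and 0.030 log2 CPM with DMSO, so that the 3 groups overlapped. The difference of the 2 class means, G1/S and replication minus G2/M, was -0.049, -0.027 and 0.00049 with tazemetostat and -0.033, 0.0076 and -0.0026 with valemetostat, against 0.065, 0.028 and 0.011 with DMSO, on the log2 scale. The lowest DMSO library lay only just above the highest valemetostat library in this difference.

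**Figure D2:**
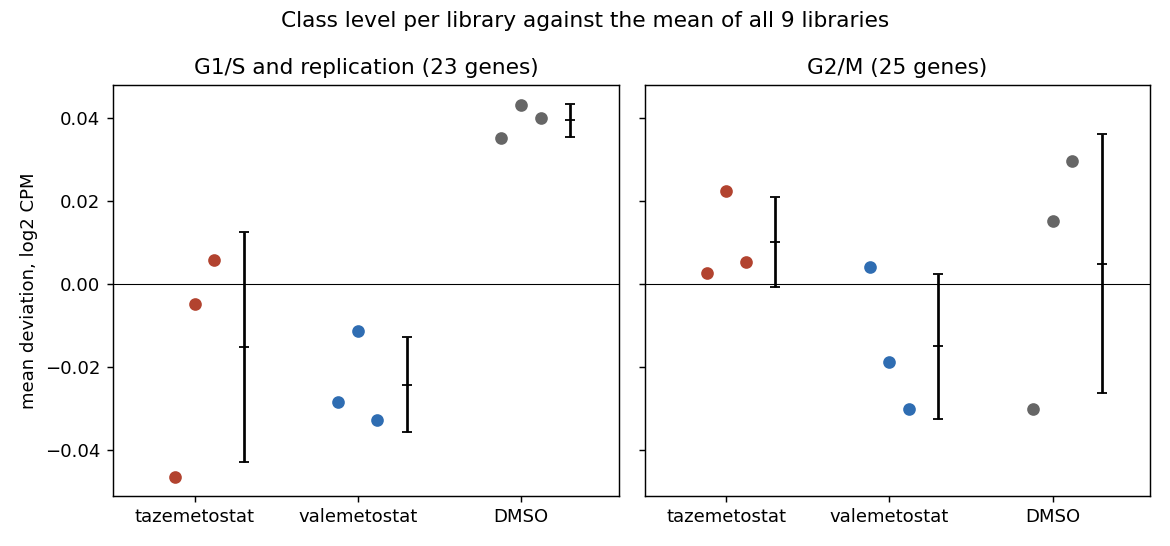
Mean deviation in log2 CPM (y axis) of the 23 G1/S and replication genes and of the 25 G2/M genes, 1 point per library, with the mean and SD of the 3 libraries of each group beside the points. The DMSO points for G1/S and replication genes, 0.035 to 0.043, lie above all 6 inhibitor points, and the G2/M points of the 3 groups overlap.

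Promoter sequence was available for 38 of the 48 genes in RefSeq windows on build GRCm38.p6, and 250 bases before each start were searched on both strands for E2F sites (spelled TTGGCGC, with TTCCCGC and with TTCGCGC and TTGCCGC as variants), for the cell cycle homology region CHR (spelled TTTGAA, with TTCGAA as a variant) and for the CCAAT box. An E2F match was found in 10 of 18 G1/S and replication genes (55.6%) and in 3 of 20 G2/M genes, beside 9.01% of all 27025 genes with a window. A CHR match was found in 4 of 18 G1/S and replication genes (22.2%) and 8 of 20 G2/M genes (40.0%), beside 19.6% of all. CCAAT was present in 13 of 18 (72.2%) and 17 of 20 (85.0%), beside 37.5% of all. The stretches of 6 genes are shown to set the sites of genes that rose (E2f8, Cdk1 and Ube2c) beside those of genes that fell (Mki67, Mcm6 and Kif11) under each inhibitor, and they were picked after the values were seen. Each reads 5′ to 3′ along the gene's strand up to the base before the RefSeq start, and capitals mark the matches, with ATTGG standing for a CCAAT box and TTCAAA for a CHR on the other strand.
E2f8 (chr7:48881597-48881846, minus strand): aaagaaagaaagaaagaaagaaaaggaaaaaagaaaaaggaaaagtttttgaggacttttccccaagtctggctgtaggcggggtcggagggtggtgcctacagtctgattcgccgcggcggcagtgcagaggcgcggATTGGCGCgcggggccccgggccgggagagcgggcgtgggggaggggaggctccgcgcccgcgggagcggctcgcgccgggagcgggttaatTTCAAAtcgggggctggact
Cdk1 (chr10:69352913-69353162, minus strand): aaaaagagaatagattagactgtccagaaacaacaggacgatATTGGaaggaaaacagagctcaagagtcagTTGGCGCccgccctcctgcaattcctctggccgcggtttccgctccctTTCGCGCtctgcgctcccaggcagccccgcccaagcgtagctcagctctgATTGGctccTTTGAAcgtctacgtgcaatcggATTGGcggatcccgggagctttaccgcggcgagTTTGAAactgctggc
Ube2c (chr2:164769679-164769928, plus strand): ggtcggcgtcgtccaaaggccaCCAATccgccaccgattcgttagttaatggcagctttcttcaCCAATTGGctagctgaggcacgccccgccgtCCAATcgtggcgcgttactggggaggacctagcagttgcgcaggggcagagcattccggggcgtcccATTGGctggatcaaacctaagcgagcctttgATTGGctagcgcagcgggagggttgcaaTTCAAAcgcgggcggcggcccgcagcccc
Mki67 (chr7:135716380-135716629, minus strand): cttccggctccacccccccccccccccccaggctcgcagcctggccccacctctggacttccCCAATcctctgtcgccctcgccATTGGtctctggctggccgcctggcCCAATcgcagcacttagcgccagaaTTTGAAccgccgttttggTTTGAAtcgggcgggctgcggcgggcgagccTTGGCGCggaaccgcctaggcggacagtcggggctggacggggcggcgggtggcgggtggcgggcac
Mcm6 (chr1:128359706-128359955, minus strand): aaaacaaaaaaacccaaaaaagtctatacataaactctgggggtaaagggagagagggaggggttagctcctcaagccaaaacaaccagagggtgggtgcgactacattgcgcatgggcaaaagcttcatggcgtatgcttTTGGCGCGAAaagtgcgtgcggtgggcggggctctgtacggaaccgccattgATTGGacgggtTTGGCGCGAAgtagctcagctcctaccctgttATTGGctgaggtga
Kif11 (chr19:37376132-37376381, plus strand): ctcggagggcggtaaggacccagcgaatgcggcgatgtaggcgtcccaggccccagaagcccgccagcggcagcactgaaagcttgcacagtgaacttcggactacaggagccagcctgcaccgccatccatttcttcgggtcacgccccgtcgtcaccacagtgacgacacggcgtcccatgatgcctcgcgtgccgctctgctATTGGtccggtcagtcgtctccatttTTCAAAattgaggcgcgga
The reversed CCAAT box of E2f8 overlaps its E2F site, and in Mcm6 each of the 2 pairs of E2F matches on opposite strands overlaps. Cdk1 holds 2 E2F, 2 CHR and 3 CCAAT matches and rose, E2f8 holds 1 of each kind and rose, and Mki67 holds 1 E2F, 2 CHR and 3 CCAAT matches and fell. All 3 kinds of motif were thus found in genes that rose and in a gene that fell, with the directions fixed by the choice of genes. Ube2c and Kif11, which also moved in opposite directions, hold 1 CHR match each and no E2F match among the 4 spellings searched. The first 25 bases after the RefSeq start were found in a GENCODE M21 transcript of the gene for 25 of 40 windows, among them those of E2f8, Cdk1 and Ube2c, and not for those of Mki67, Mcm6 and Kif11, so the starts of these 3 genes that fell are less sure. The matches describe letters in these windows and say nothing of which factors were bound.

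The E2F factors held the largest rise among the 48 genes. E2f8 had 45.5, 39.6 and 36.7 CPM in the tazemetostat libraries and 44.1, 40.8 and 43.2 CPM in the valemetostat libraries, against 23.7, 28 and 25.2 CPM in the DMSO libraries. Every inhibitor library was above every DMSO library for E2f8, an atypical E2F that represses E2F target genes. Its log2 fold change was 0.67 ± 0.08 under tazemetostat (adjusted p = 2.27e-07) and 0.74 ± 0.08 under valemetostat (adjusted p = 4.07e-08), a rise of 58.9% and 67.1%. Of the 2 activating E2F factors among the 48 genes, E2f2 fell under both inhibitors and E2f1 under tazemetostat. E2f1 had 23.3, 27.9 and 27 CPM in the tazemetostat libraries and 24.9, 27 and 33.1 CPM in the valemetostat libraries, against 35.3, 31.5 and 29.6 CPM in the DMSO libraries. The tazemetostat libraries lay below the DMSO libraries for E2f1, while the valemetostat libraries overlapped them. E2f1 fell under tazemetostat, with a log2 fold change of -0.31 ± 0.10 (adjusted p = 0.0151), and had -0.19 ± 0.10 under valemetostat (adjusted p = 0.135). The fall of E2f2 was 0.30 and 0.29 on the log2 scale (adjusted p = 0.00804 and 0.00997). The call of E2f1 was lost without DMSO replicate 1 (adjusted p = 0.0873) or without tazemetostat replicate 1 (adjusted p = 0.0872), and that of E2f2 under tazemetostat without tazemetostat replicate 3 (adjusted p = 0.067). With limma on the deposited log2 values E2f1 was not called under tazemetostat (adjusted p = 0.0514), nor E2f2 in either comparison (adjusted p = 0.0919 and 0.35). With an offset for the transcript length implied by the deposited counts and TPM, added after seeing the data, E2f2 was not called under valemetostat either (adjusted p = 0.065). E2f8 was called under all 17 alternatives in each comparison.

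The G1/S kinase genes moved by less. Ccne1 had 49.1, 52 and 54.5 CPM in the tazemetostat libraries and 50.4, 52 and 44.5 CPM in the valemetostat libraries, against 46.2, 48.2 and 51.4 CPM in the DMSO libraries. The 3 groups overlapped for Ccne1, the cyclin E1 gene that partners Cdk2 at entry to S phase, and its log2 fold changes were 0.095 ± 0.07 under tazemetostat (adjusted p = 0.284) and 0.012 ± 0.07 under valemetostat (adjusted p = 0.902). Ccne2, its paralogue, rose under valemetostat, with a log2 fold change of 0.23 ± 0.08 (adjusted p = 0.0194), and had 0.024 ± 0.08 under tazemetostat (adjusted p = 0.834). Cdk2, the kinase partner of cyclin E, fell by 0.19 under tazemetostat and 0.20 under valemetostat on the log2 scale (adjusted p = 0.00667 and 0.00525). Cdc25a, the phosphatase that activates Cdk2, fell by 0.21 and 0.21 (adjusted p = 0.00131 and 0.00131), and its inhibitor libraries, at 92.9 to 97.3 CPM, did not overlap its DMSO libraries, at 105 to 115 CPM. The rise of Ccne2 was no longer called without valemetostat replicate 2 (adjusted p = 0.052), nor the fall of Cdk2 under tazemetostat without tazemetostat replicate 3 (adjusted p = 0.0577). With limma on the deposited values Ccne2 was not called under valemetostat (adjusted p = 0.433) or Cdk2 under tazemetostat (adjusted p = 0.0652).

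Among 10 genes that license origins or build the replicative helicase, 4 fell and none rose under tazemetostat, and the same count held under valemetostat, so that 40.0% were called beside 38.1% and 39.2% of all genes tested. All of the called genes were lower, beside 18.2% and 18.7% of all genes tested that were called lower. Those called lower were Cdc6, Mcm4, Mcm5 and Mcm6. Cdc6, which loads the helicase at origins with Cdt1, fell by 0.24 under tazemetostat and 0.27 under valemetostat on the log2 scale (adjusted p = 0.000751 and 0.000274). The 6 Mcm genes encode the subunits of 1 helicase ring, and they did not move alike. Mcm6 had 521, 523 and 515 CPM in the tazemetostat libraries and 501, 509 and 519.7 CPM in the valemetostat libraries, against 562, 598 and 617 CPM in the DMSO libraries. All 6 inhibitor libraries were below the DMSO libraries for Mcm6, with log2 fold changes of -0.19 ± 0.04 under tazemetostat (adjusted p = 0.000997) and -0.22 ± 0.04 under valemetostat (adjusted p = 0.000234). Mcm5 had log2 fold changes of -0.16 ± 0.05 and -0.17 ± 0.05 and Mcm4 of -0.13 ± 0.04 and -0.19 ± 0.04 under tazemetostat and valemetostat. Mcm2 had 377, 373 and 388 CPM in the tazemetostat libraries and 367, 379 and 356 CPM in the valemetostat libraries, against 407, 391 and 383 CPM in the DMSO libraries. The tazemetostat libraries overlapped the DMSO libraries for Mcm2 and the valemetostat libraries lay below them, with log2 fold changes of -0.053 ± 0.04 under tazemetostat (adjusted p = 0.351) and -0.10 ± 0.04 under valemetostat (adjusted p = 0.066). Mcm3 and Mcm7 had log2 fold changes between -0.0065 and 0.072 and were not called. Cdt1 (adjusted p = 0.171 under tazemetostat and 0.189 under valemetostat) and the GINS subunits Gins1 and Gins2, which join the ring to form the active helicase, were not called either, with log2 fold changes of -0.16 to -0.065. The fall of Mcm4 under tazemetostat was lost without DMSO replicate 2, tazemetostat replicate 1 or tazemetostat replicate 3 (adjusted p = 0.14, 0.0713 and 0.0764). Other alternatives gained calls. Gins1 was called lower under both inhibitors with an offset for annotated or implied transcript length, and Gins2 with the implied length offset. Under valemetostat Mcm2 and Cdt1 were called lower with the length and GC offset and with limma. Mcm2 was also called there with library totals, DESeq2 or without DMSO replicate 3.

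The polymerase genes and the clamp moved in opposite directions. Pole had 117, 119 and 109 CPM in the tazemetostat libraries and 108, 106 and 103 CPM in the valemetostat libraries, against 155, 156 and 147 CPM in the DMSO libraries. The inhibitor libraries lay below the DMSO libraries for Pole, the catalytic subunit of DNA polymerase epsilon that copies the leading strand, and its 3 valemetostat libraries were below its 3 tazemetostat libraries. Its log2 fold change was -0.41 ± 0.05 under tazemetostat (adjusted p = 1.68e-07) and -0.53 ± 0.05 under valemetostat (adjusted p = 2.15e-09), a fall of 24.9% and 30.9%. Pola1, the catalytic subunit of the polymerase that makes primers, fell under valemetostat, with a log2 fold change of -0.17 ± 0.05 (adjusted p = 0.0136), and had -0.069 ± 0.05 under tazemetostat (adjusted p = 0.328). Pcna had 304, 307 and 328 CPM in the tazemetostat libraries and 306, 311 and 294 CPM in the valemetostat libraries, against 277, 277 and 283 CPM in the DMSO libraries. The inhibitor libraries were all above the DMSO libraries for Pcna, the sliding clamp of the polymerases, with log2 fold changes of 0.16 ± 0.04 under tazemetostat (adjusted p = 0.00356) and 0.12 ± 0.04 under valemetostat (adjusted p = 0.0266). Pole was called under all 17 alternatives in both comparisons, but Pcna was not called once annotated transcript length and GC content were fitted as an offset, a fit that called 38.6% of all genes tested in each comparison (adjusted p = 0.145 and 0.916). Without DMSO replicate 1 or 2, or without valemetostat replicate 1 or 2, Pcna was also not called under valemetostat, and Pola1 was not called there without DMSO replicate 2, valemetostat replicate 2 or valemetostat replicate 3, with adjusted p between 0.0566 and 0.0926 for Pcna and between 0.0559 and 0.0793 for Pola1. Under valemetostat Pola1 was also not called with the length and GC offset (adjusted p = 0.0685), the implied length offset (adjusted p = 0.422) or limma (adjusted p = 0.0525), nor Pcna with the implied length offset (adjusted p = 0.346), and limma called Pcna in neither comparison (adjusted p = 0.143 and 0.611).

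The 3 genes of deoxynucleotide synthesis lay near their DMSO levels. Rrm1 and Rrm2, the subunits of ribonucleotide reductase, had log2 fold changes of 0.048 and 0.084 under tazemetostat and 0.03 and 0.044 under valemetostat, and neither was called. Tyms, thymidylate synthase, rose under valemetostat, with a log2 fold change of 0.17 ± 0.05 (adjusted p = 0.0147), and had 0.13 ± 0.05 under tazemetostat (adjusted p = 0.0523). The valemetostat call was lost with the implied length offset (adjusted p = 0.465) and without DMSO replicate 2 (adjusted p = 0.0682) or valemetostat replicate 1 (adjusted p = 0.0553). Under tazemetostat Tyms was called higher with the 1 CPM filter, the length and GC offset, DESeq2 or without DMSO replicate 1 or tazemetostat replicate 1.

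Among the cyclins, kinase and phosphatases of G2 and mitosis, Cdk1 and its cyclin A partner rose while the cyclin B genes did not. Cdk1 had 149, 148 and 154 CPM in the tazemetostat libraries and 158, 157 and 148 CPM in the valemetostat libraries, against 125, 127 and 137 CPM in the DMSO libraries. All inhibitor libraries were above the DMSO libraries for Cdk1, the kinase that drives entry into mitosis. Its log2 fold change was 0.21 ± 0.05 under tazemetostat (adjusted p = 0.000823) and 0.25 ± 0.05 under valemetostat (adjusted p = 0.000129). Ccna2, cyclin A2, rose by 0.15 and 0.16 on the log2 scale under tazemetostat and valemetostat (adjusted p = 0.00832 and 0.00594). Ccnb1 had 225, 227 and 229 CPM in the tazemetostat libraries and 231, 234 and 216 CPM in the valemetostat libraries, against 213, 226 and 231 CPM in the DMSO libraries. The groups overlapped for Ccnb1, cyclin B1, whose log2 fold changes were 0.023 ± 0.04 under tazemetostat (adjusted p = 0.72) and 0.023 ± 0.04 under valemetostat (adjusted p = 0.721). Ccnb2, Cdc25b and Cdc25c, a second cyclin B and the phosphatases that activate Cdk1, had log2 fold changes between -0.11 and 0.042 and were not called. Foxm1 had 60.4, 61.2 and 57.1 CPM in the tazemetostat libraries and 59.3, 57.1 and 60.5 CPM in the valemetostat libraries, against 73.8, 77.4 and 70.1 CPM in the DMSO libraries. Foxm1, which encodes a transcription factor for the G2/M genes, lay lower in all inhibitor libraries than in any DMSO library, and fell with log2 fold changes of -0.31 ± 0.06 under tazemetostat (adjusted p = 9.84e-05) and -0.32 ± 0.06 under valemetostat (adjusted p = 5.48e-05). Foxm1 was called under all 17 alternatives in both comparisons. With the implied length offset Cdk1 had 0.091 under tazemetostat (adjusted p = 0.0527) and 0.11 under valemetostat (adjusted p = 0.0207), and the tazemetostat call of Ccna2 was lost without tazemetostat replicate 2 (adjusted p = 0.0508). With limma on the deposited values Cdk1 was not called under tazemetostat (adjusted p = 0.238) and Ccna2 in neither comparison (adjusted p = 0.414 and 0.375).

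The mitotic kinases showed little change. Aurka and Aurkb, kinases of the spindle pole and of the centromere, and Plk1, a kinase that acts through mitosis, had log2 fold changes between -0.11 and 0.093 in the 2 comparisons, and none was called. Birc5, survivin, a partner of Aurkb in the chromosomal passenger complex, rose under tazemetostat, with a log2 fold change of 0.19 ± 0.06 (adjusted p = 0.00846), and had 0.13 ± 0.06 under valemetostat (adjusted p = 0.0804). The tazemetostat call was lost with the implied length offset (adjusted p = 0.224), with limma (adjusted p = 0.0809) and without DMSO replicate 2 or tazemetostat replicate 2 (adjusted p = 0.0667 and 0.0638).

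Genes of the spindle checkpoint and of the anaphase-promoting complex gave 3 of the 5 largest rises in each comparison. Pttg1 had 81.8, 91 and 103 CPM in the tazemetostat libraries and 89.9, 93.1 and 89.5 CPM in the valemetostat libraries, against 64.6, 63.1 and 75.7 CPM in the DMSO libraries. Mad2l1 had 114, 115 and 119 CPM in the tazemetostat libraries and 127, 122 and 114 CPM in the valemetostat libraries, against 88.6, 85.7 and 95.9 CPM in the DMSO libraries. Ube2c had 187, 191 and 191 CPM in the tazemetostat libraries and 188, 187 and 182 CPM in the valemetostat libraries, against 138, 147 and 169.9 CPM in the DMSO libraries. For each of these 3 genes the lowest inhibitor library was above the highest DMSO library. Pttg1, securin, which holds back separase until anaphase, had log2 fold changes of 0.44 ± 0.08 under tazemetostat (adjusted p = 0.00014) and 0.42 ± 0.08 under valemetostat (adjusted p = 0.00021). Mad2l1, a checkpoint protein that blocks the complex until chromosomes are attached, had log2 fold changes of 0.36 ± 0.05 under tazemetostat (adjusted p = 5.2e-06) and 0.43 ± 0.05 under valemetostat (adjusted p = 4.24e-07). Ube2c, the ubiquitin-conjugating enzyme of the complex, had log2 fold changes of 0.33 ± 0.06 under tazemetostat (adjusted p = 4.55e-05) and 0.30 ± 0.06 under valemetostat (adjusted p = 0.000149). The complex's activator Cdc20 had log2 fold changes of -0.0088 and 0.026 and was not called. The checkpoint kinase genes each fell in 1 comparison, with Bub1 at -0.10 ± 0.05 under tazemetostat (adjusted p = 0.128) and -0.18 ± 0.05 under valemetostat (adjusted p = 0.00476), and Bub1b at -0.11 ± 0.04 (adjusted p = 0.0332) and -0.10 ± 0.04 (adjusted p = 0.0625). With the implied length offset the log2 fold changes were 0.28 and 0.25 for Pttg1, 0.34 and 0.40 for Mad2l1, and 0.22 and 0.16 for Ube2c, whose valemetostat call was lost (adjusted p = 0.0799). The fall of Bub1b under tazemetostat was lost without DMSO replicate 1 or 2 or without tazemetostat replicate 1 or 3, with adjusted p between 0.0674 and 0.118. It was also lost with no filter, the replicate block or the compared groups alone (adjusted p = 0.0717, 0.0513 and 0.0586). Under valemetostat Bub1b was called lower with library totals, the length and GC offset with or without the block, DESeq2 or without DMSO replicate 3. Under tazemetostat Bub1 was called lower with the length and GC offset or without DMSO replicate 1.

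**Figure D3:**
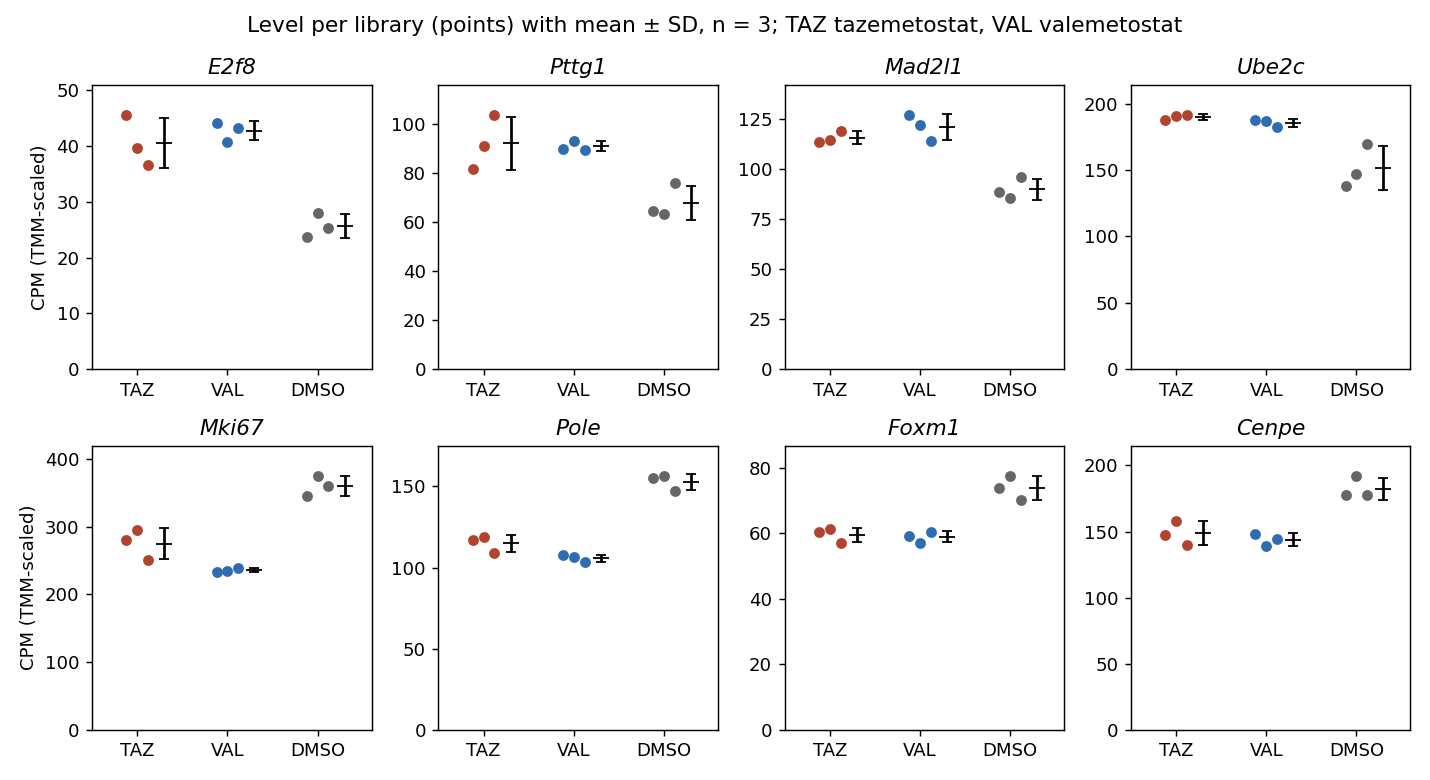
CPM (y axis, from 0) in each of the 3 tazemetostat (TAZ), 3 valemetostat (VAL) and 3 DMSO libraries for 4 genes that rose (top row) and 4 that fell (bottom row), with mean and SD beside the points. In all 8 panels the inhibitor points lie wholly above or wholly below the DMSO points, and for Mki67 and Pole the 3 valemetostat points also lie below the 3 tazemetostat points. The 8 genes were picked among those with the largest called fold changes, which makes such separation likely.

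The centromere and spindle genes divided by gene. Cenpe had 148, 158 and 140.0 CPM in the tazemetostat libraries and 149, 139 and 144 CPM in the valemetostat libraries, against 177, 192 and 177 CPM in the DMSO libraries. Cenpf had 66.9, 73.6 and 64.4 CPM in the tazemetostat libraries and 72.4, 64.3 and 71.1 CPM in the valemetostat libraries, against 85.2, 88.8 and 85.9 CPM in the DMSO libraries. All inhibitor libraries were below all DMSO libraries for Cenpe, a kinesin of the kinetochore, and for Cenpf, a kinetochore protein. Cenpe had log2 fold changes of -0.29 ± 0.05 under tazemetostat (adjusted p = 4.17e-05) and -0.34 ± 0.05 under valemetostat (adjusted p = 5.77e-06), and Cenpf of -0.34 ± 0.06 under tazemetostat (adjusted p = 4.56e-05) and -0.32 ± 0.06 under valemetostat (adjusted p = 9.18e-05). Cenpa, the histone H3 variant of centromeres, rose by 0.13 and 0.16 on the log2 scale under tazemetostat and valemetostat (adjusted p = 0.0438 and 0.00988). Kif11, the kinesin that separates spindle poles, fell, with log2 fold changes of -0.23 ± 0.04 under tazemetostat (adjusted p = 0.000211) and -0.23 ± 0.04 under valemetostat (adjusted p = 0.000222). Kif23, a kinesin of cytokinesis, and Tpx2, a spindle assembly factor, had log2 fold changes between -0.10 and -0.0015 and were not called. With the implied length offset Cenpe had -0.11 and -0.11 and Kif11 -0.16 and -0.13 under tazemetostat and valemetostat, all still called, while Cenpf had -0.053 (adjusted p = 0.434) and 0.033 (adjusted p = 0.644) and Cenpa 0.023 (adjusted p = 0.737) and 0.042 (adjusted p = 0.511). The tazemetostat call of Cenpa was made under 5 of 17 alternatives, and was lost without any 1 of the DMSO replicates (adjusted p up to 0.101) or without tazemetostat replicate 1 or 3 (adjusted p = 0.153 and 0.0865); its valemetostat call was lost without valemetostat replicate 3 (adjusted p = 0.0624) and with limma (adjusted p = 0.242). With the length and GC offset Cenpf and Cenpa were not called under valemetostat (adjusted p = 0.0804 and 0.468).

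Mki67, the gene of the proliferation marker Ki-67, had the largest fall of the 48 genes under valemetostat. Mki67 had 279, 294 and 250 CPM in the tazemetostat libraries and 233, 234 and 239 CPM in the valemetostat libraries, against 345, 374 and 359 CPM in the DMSO libraries. The 3 groups did not overlap, with the valemetostat libraries lowest and the DMSO libraries highest. Its log2 fold change was -0.39 ± 0.05 under tazemetostat (adjusted p = 8.5e-07) and -0.61 ± 0.05 under valemetostat (adjusted p = 4e-10), a fall of 23.7% and 34.5%. Top2a, the topoisomerase that untangles chromosomes and is often read beside Ki-67, had log2 fold changes of 0.10 ± 0.04 under tazemetostat (adjusted p = 0.0633) and 0.037 ± 0.04 under valemetostat (adjusted p = 0.538). Mki67 was called under all 17 alternatives in both comparisons, but with the implied length offset its log2 fold change was -0.12 (adjusted p = 0.0159) under tazemetostat and -0.28 (adjusted p = 1.32e-06) under valemetostat.

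The fold changes of the 48 genes went down as transcripts got longer. Relative length was taken from the ratio of deposited counts to deposited TPM, with the median of all genes set to 1. Pttg1 (0.202), Cdk1 (0.309), Birc5 (0.318) and Ube2c (0.323) were among the short genes and were called higher in at least 1 comparison, while Pole (2.3), Cenpe (3.51), Mki67 (4.59) and Cenpf (4.88) were among the long ones and fell. Gins1 (0.369) and Ccnb2 (0.588) were short as well, but had negative log2 fold changes and were not called. These were -0.16 and -0.12 for Gins1 and -0.075 and -0.11 for Ccnb2 under tazemetostat and valemetostat. Spearman's rho of log2 fold change and relative length over the 48 genes, which all come from the same 9 libraries, was -0.60 under tazemetostat and -0.62 under valemetostat. It was -0.75 and -0.74 over the 25 G2/M genes and -0.40 and -0.46 over the 23 G1/S and replication genes. Over 8931 genes of at least 3 log2 CPM it was -0.36 and -0.42. With annotated transcript length in its place rho was -0.40 and -0.45 over the 48 genes, -0.41 and -0.41 over the G2/M genes and -0.39 and -0.51 over the G1/S and replication genes, beside -0.36 and -0.41 over 8944 genes. Per library, rho of the deviation of all such genes with annotated transcript length was -0.029, -0.0092 and -0.45 with tazemetostat and -0.26, -0.46 and -0.24 with valemetostat, against 0.29, 0.49 and 0.21 with DMSO. All 6 inhibitor libraries were thus negative and all 3 DMSO libraries positive in this measure, and the part of length in the changes of the 48 genes was not tested beyond the offset fits. With the implied length offset 7 genes were called higher and 18 lower under tazemetostat, and 7 higher and 16 lower under valemetostat, beside 38.1% and 37.8% of all genes tested. E2f8 (0.69 and 0.77), Mad2l1 (0.34 and 0.40), Pole (-0.34 and -0.43), Foxm1 (-0.27 and -0.28) and Mcm6 (-0.18 and -0.20) kept log2 fold changes near those without an offset under tazemetostat and valemetostat. Aurka (-0.13 and -0.17) and Ccnb2 (-0.14 and -0.19) were called lower, and Top2a (0.14 and 0.091) higher, only with an offset or under some of the other alternatives.

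**Figure D4:**
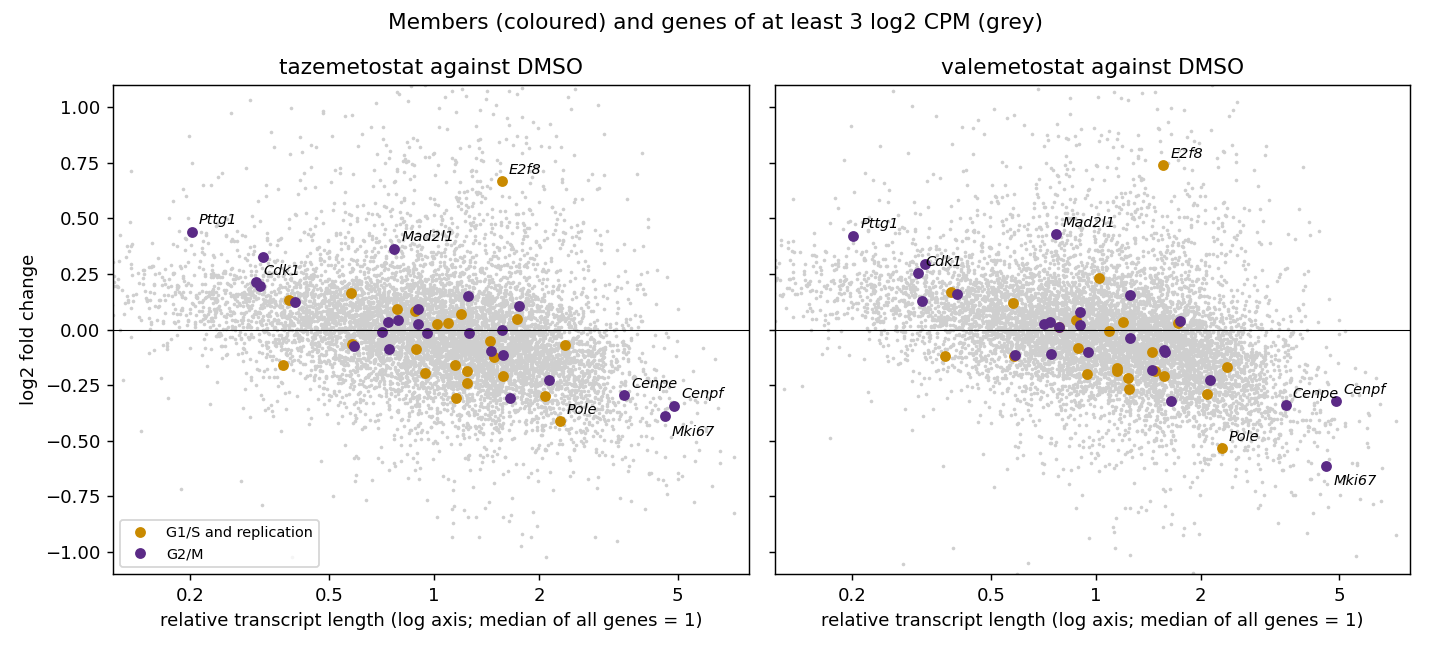
Log2 fold change (y axis) against relative transcript length (x axis, log scale, median of all genes 1) for the G1/S and replication genes (orange), the G2/M genes (purple) and genes of at least 3 log2 CPM (grey), under tazemetostat (left) and valemetostat (right). Some short members such as Pttg1 lie above 0, while Gins1, at a relative length of 0.369, lies below it. Long members such as Mki67, Cenpe and Cenpf lie below 0, and E2f8 lies high at a relative length of 1.56. Spearman's rho over the 48 genes was -0.60 and -0.62.

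Between the inhibitors, none of the 48 genes was called by edgeR, beside 0.318% of all genes tested. An unadjusted p under 0.05 was found for 4 genes (Mki67, Ccne2, Pole and Tpx2), and limma on the deposited log2 values called 0 of the 48 (0.00795% of all genes tested) and DESeq2 called 1 (0.612% of all genes tested). Mki67 came nearest, at 233, 234 and 239 CPM in the valemetostat libraries, against 279, 294 and 250 CPM in the tazemetostat libraries. The groups did not overlap, and the log2 fold change of valemetostat over tazemetostat was -0.22 ± 0.05 (95% interval -0.33 to -0.12, adjusted p = 0.0507). It was called under 9 of 17 alternatives, with adjusted p between 0.00124 and 0.766 over all of them, and it was -0.29 without tazemetostat replicate 3 (adjusted p = 0.00317) and -0.17 without tazemetostat replicate 2 (adjusted p = 0.53). Ccne2 had a log2 fold change of 0.21 ± 0.08 (interval 0.048 to 0.36, adjusted p = 0.446), Pole of -0.12 ± 0.05 (interval -0.22 to -0.022, adjusted p = 0.48) and Tpx2 of -0.09 ± 0.04 (interval -0.18 to -0.002, adjusted p = 0.616). E2f8, the gene with the largest rise, had 0.072 ± 0.08 (interval -0.086 to 0.23). The median of the 48 genes was -0.020, and the intervals leave room for small differences between the inhibitors in every gene.

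Set side by side per transcript length, levels in DMSO cells spanned from 289 ± 5.98 TPM for Pcna to 6.61 ± 1.2 TPM for E2f2 (mean ± SD, n = 3 each). Pcna, Top2a (285 ± 17 TPM), Mcm6 (284 ± 15.1 TPM) and Ube2c (281 ± 25.4 TPM) led and differed by less than their spread. In inhibitor cells Ube2c stood first, at 331 ± 5.92 TPM with tazemetostat and 322 ± 6.29 TPM with valemetostat. The helicase subunits, which work as 1 ring, were not at equal RNA levels in DMSO cells, where Mcm6 was followed by Mcm5 (209 ± 14.1 TPM), Mcm3 (166 ± 14), Mcm2 (162 ± 7.82), Mcm7 (141 ± 9.89) and Mcm4 (121 ± 9.87), and Mcm3 and Mcm2 differed by less than their spread. In tazemetostat cells Mcm6 was at 236 ± 7.84, Mcm5 at 176 ± 1.89, Mcm3 at 165 ± 4.72, Mcm2 at 148 ± 0.821, Mcm7 at 141 ± 7.64 and Mcm4 at 104 ± 4.28 TPM. The E2F genes were the lowest group in DMSO cells, with E2f1 at 16.6 ± 1.64, E2f8 at 9.78 ± 1.08 and E2f2 at 6.61 ± 1.2 TPM. E2f8 averaged 14.8 ± 1.88 TPM with tazemetostat and 15.3 ± 0.787 TPM with valemetostat, and E2f1 12.7 ± 1.14 and 13.8 ± 2.08 TPM.

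Other genes of the same pathways were taken from 3 lists. Of 42 further replication genes 3 rose and 10 fell under tazemetostat, and 3 rose and 11 fell under valemetostat. Thus 31.0% and 33.3% were called, below the 38.1% and 39.2% of all genes tested. By direction, 23.8% and 26.2% were lower, above the 18.2% and 18.7% of all genes tested. Those higher made up 7.14% in each comparison, below 19.9% and 20.5%. The 42 genes had median log2 fold changes of -0.076 and -0.070. Dut, the dUTPase that keeps uracil out of DNA, rose by 0.42 and 0.45 on the log2 scale (adjusted p = 2.13e-07 and 8.11e-08), as did Pole2, the second subunit of polymerase epsilon (0.31 and 0.32), in contrast to Pole, and Tk1, thymidine kinase (0.21 and 0.24). Wdhd1, a replisome scaffold, fell by 0.34 under tazemetostat and 0.24 under valemetostat, and Rfc1, the large subunit of the clamp loader, by 0.27 and 0.30. Mcm10, an initiation factor, had -0.26 under tazemetostat and Pold3, a subunit of polymerase delta, -0.21 under valemetostat.

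Of 52 further genes of mitosis 5 rose and 15 fell under tazemetostat, and 5 rose and 19 fell under valemetostat. Thus 38.5% and 46.2% were called beside 38.1% and 39.2% of all genes tested, with medians of -0.066 and -0.0097. By direction, 28.8% and 36.5% were lower, above the 18.2% and 18.7% of all genes tested. Those higher made up 9.62% in each comparison, below 19.9% and 20.5%. Calls in this list thus leaned downwards, unlike those of the G2/M genes described above. Kntc1, which recruits dynein to kinetochores, fell by 0.40 under tazemetostat, Hjurp, the chaperone of Cenpa, by 0.30, and Espl1, the separase held by Pttg1, by 0.28 under tazemetostat and 0.35 under valemetostat on the log2 scale. Ncapg2, a condensin subunit, and Knl1, a kinetochore scaffold, had -0.41 and -0.43 under valemetostat. Melk, a mitotic kinase, rose by 0.22 and 0.16 under tazemetostat and valemetostat, Ncaph, another condensin subunit, by 0.16 under tazemetostat and Kif18a, a kinesin, by 0.18 under valemetostat. Cks2, a small Cdk1-binding protein, rose by 0.14 and 0.19, but had -0.039 and -0.011 with the length and GC offset.

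Of 29 further regulators of cell cycle transcription and checkpoints 3 rose and 6 fell under tazemetostat, and 5 rose and 5 fell under valemetostat. Thus 31.0% and 34.5% were called, below the 38.1% and 39.2% of all genes tested. Under tazemetostat 10.3% were higher and 20.7% lower, beside 19.9% and 18.2% of all genes tested. Under valemetostat 17.2% were higher and 17.2% lower, beside 20.5% and 18.7%. E2f7, the other atypical E2F repressor, rose with log2 fold changes of 0.36 ± 0.11 under tazemetostat (adjusted p = 0.00982) and 0.39 ± 0.11 under valemetostat (adjusted p = 0.005), beside the rise of E2f8, although E2f7 had -0.031 under valemetostat on the deposited log2(TPM + 1) scale (adjusted p = 0.922). Cdk6, a G1 kinase that pairs with D-type cyclins, fell, with log2 fold changes of -0.45 ± 0.05 under tazemetostat (adjusted p = 3.16e-07) and -0.60 ± 0.05 under valemetostat (adjusted p = 2.09e-09). Mybl2, a transcription factor that prepares the G2/M program, fell by 0.25 and 0.29 on the log2 scale, Pkmyt1, a kinase that holds Cdk1 inactive, by 0.21 under tazemetostat, and E2f4, a repressive E2F, by 0.21 under valemetostat. Cdc14b, a mitotic exit phosphatase, rose by 0.60 and 0.46, and Ccnh, a cyclin of the Cdk-activating kinase, by 0.19 and 0.29. The annotated transcripts of Cdk6, Knl1, Kntc1 and Espl1, which fell, have 11525, 7800, 6961 and 6658 bases. Those of Cdc14b and E2f7, which rose, have 5859 and 5473, beside a median of 2989.5 over all genes tested. Pole2 has 1706 bases and Pole 7163. The part of length in the changes of the partner genes was not tested beyond the offset fits. Between valemetostat and tazemetostat edgeR, DESeq2 and limma each called 0 genes of these 3 lists, and an unadjusted edgeR p under 0.05 was found for 0 of the replication genes, 10 of the mitosis genes and 5 of the regulators.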

How the data were processed

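Per the labels, 9 libraries were made from poly(A) RNA with random-hexamer priming and read from both ends. The authors deposited whole-number counts per gene, and a second table of log2 values, which are log2(TPM + 1) as read from their steps. The submitters' processing notes name mm9; the sources used here state no aligner, counter or annotation. Reads of near-identical copies and overlapping genes could not be told apart.

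Counts were tested with edgeR 4.0.16 in R 4.3.3 (TMM scaling, filterByExpr at min.count 10 and min.total.count 15, robust quasi-likelihood F test, all 9 libraries in 1 fit, Benjamini-Hochberg over 12580 genes). Standard errors were derived from the fold change and its F statistic. The procedure was tested on simulated data. Alternatives were median-ratio factors, library totals, no filter, at least 1 CPM in 3 libraries, DESeq2 1.42.0, limma 3.58.1 on the deposited log2 values, the replicate number as a block, the compared groups alone, each library left out, and per-library offsets (splines with 5 degrees of freedom over genes of at least 3 log2 CPM) for GC content with the longest GENCODE M21 transcript or, added after seeing the data, the length implied by counts and TPM.

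Values per library are given for up to 5 called genes in each direction per comparison with the largest fold change, and for Mki67, Ccnb1, Ccne1, Mcm2, Pcna and E2f1; partner genes are up to 3 per list and direction by smallest p. Mcm6 was added for its role. The members and lists were chosen with earlier results of these data known. Replicates within a group differed by more than sampling noise (chi-square per degree of freedom 5.27 to 13.5). The B cell list held a further marker that is not reported here.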

Additional observations from a re-analysis of the deposited data

How the results depend on the processing

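Of the member values across all alternatives, 2303 stayed on the same side of the threshold, 72 lost a call and 72 gained one. The remaining 1 reversed, Cenpf under valemetostat with the implied length offset (0.033). A change of sign was counted as reversed only where either value was called. Ccnb1 under tazemetostat, called in neither fit, went from 0.023 to -0.10 with limma and was counted as unchanged. Among partner genes the reversed values were Cks2 under tazemetostat (-0.039 with the length and GC offset, -0.040 with the replicate block as well, -0.018 with the implied length offset) and under valemetostat (-0.011 and -0.011 with the first 2 of these), Smc2 under valemetostat (0.0015 with the implied length offset) and E2f7 under valemetostat (-0.031 with limma). Of 9 genes called higher and 15 called lower under tazemetostat, 4 and 9 were called in every alternative, and of 10 and 15 under valemetostat, 4 and 12.

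With limma on log2(TPM + 1), 4 members were higher under tazemetostat (1 of G1/S and replication, 3 of G2/M; 7 of G1/S and replication called in all) and 6 under valemetostat (2 of G1/S and replication, with 10 of G2/M lower), and 2 partner genes were higher under each inhibitor. All genes tested leaned downwards on that scale. Library totals gave 10 G2/M genes lower under valemetostat and a G1/S and replication median of -0.14. With the length and GC offset the medians under valemetostat were -0.11 for G1/S and replication and -0.051 for G2/M, and with the implied length offset -0.095 and -0.024, with 2 G1/S and replication genes higher; the cause was not tested. Leaving out 1 library gave 6 to 15 partner genes higher under tazemetostat (lowest without DMSO replicate 1 or 2) and 8 to 19 under valemetostat (lowest without DMSO replicate 1), 2 to 4 G1/S and replication genes higher under valemetostat (lowest without DMSO replicate 2 or valemetostat replicate 1 or 2), and valemetostat medians of -0.12 to -0.082 for G1/S and replication and -0.035 to 0.018 for G2/M. Between valemetostat and tazemetostat 0 to 1 members, and 0 to 1 G2/M genes, were called lower when 1 library was left out, and 1 (Mki67) with median-ratio factors, no filter, the 1 CPM filter, either offset, the block with the offset, the compared groups alone or DESeq2. Partner genes called there numbered 0 to 1.

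Whether replicate numbers pair the samples was not settled. Deviations of same-numbered libraries of different groups correlated at -0.22 to 0.24, and those of different-numbered libraries at -0.33 to 0.28. With 3 libraries per group these values cannot decide it. With the number as a replicate block 22 members were called under tazemetostat (Bub1b and Cenpa lost) and 25 under valemetostat, with 0 between the inhibitors, and with the block and the length and GC offset 1 G1/S and replication gene was higher under tazemetostat. Precision is limited by 3 libraries per group.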
